A study of Mus musculus with 2 samples.

Results

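The miR-29 family comprises 4 miRNA genes, Mir29a, Mir29b-1, Mir29b-2 and Mir29c, taken by their GENCODE M21 symbols from the 2202 miRNA genes counted in this series. All 4 were present in the files, and all 4 passed the minimum of 10 counts in each library. MicroRNAs (miRNAs) are small RNAs that lead a silencing complex to mRNAs with matching sites, and they were counted by small-RNA sequencing of inserts below 30 bases. Cortex of the left cerebral hemisphere came from male mice aged 25 days, of the strain B6CASTF1/J (the F1 hybrid of C57BL/6J and CAST/EiJ), for which the labels give no treatment. By the labels this is 1 group of 2 biological replicates, taken from males numbered 3 (replicate 1) and 4 (replicate 2), with 1 library each. Such a design allows a description of the family and a comparison of 2 libraries, not of conditions, and differences between the animals and between their library preparations cannot be told apart.

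The members of this family derive from 2 clusters that are each transcribed as a common precursor and then cut into hairpins. The mature miRNAs are known to repress mRNAs of the extracellular matrix, such as collagens and elastin, and of the de novo DNA methyltransferases. In brain the family is known to accumulate as neurons mature after birth, where it restrains pro-apoptotic genes, and it is also abundant in astrocytes.

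The mature sequences are shown because they decide which reads can be counted for which gene. All 4 genes were matched to RefSeq (GRCm38.p6, the same assembly as mm10), and their hairpins lie at the GENCODE positions. The 3p arm is the family's guide strand. The sequences below run 5′ to 3′, with the seed (bases 2 to 8, which pair with targets) in capitals:
miR-29a-3p: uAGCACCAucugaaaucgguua
miR-29b-3p: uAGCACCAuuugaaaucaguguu
miR-29c-3p: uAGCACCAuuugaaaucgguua

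All 3 had the seed AGCACCA, and no other mature miRNA in the RefSeq table had it, so by the seed of its 3p arm the family stood alone. Among the 5p arms, miR-29b-2-5p shared its seed UGGUUUC with miR-6338, and the others shared theirs with no other mature miRNA. Counted from 1 at the 5′ end, miR-29a-3p and miR-29c-3p differed at 1 position (C10U, miR-29a-3p first). Between miR-29b-3p and miR-29c-3p the first 17 bases were identical, and 3 of the 22 compared positions differed (A18G, G21U and U22A, miR-29b-3p first). Between miR-29a-3p and miR-29b-3p there were 4 differences (C10U, G18A, U21G and A22U, miR-29a-3p first). The last bases of miR-29b-3p read AGUGUU, a terminal motif known to direct this miRNA to the nucleus. The 1738 mature entries of the RefSeq table hold 1679 different mature miRNAs (by name and sequence), since one made from several loci is entered at each. Of these 1679, searched on the strand of the miRNA, 2 ended in it (0.119%), miR-29b-3p and miR-92b-5p.

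Each hairpin is shown with its mature arms in capitals, 5p first and 3p second, because Mir29b-1 and Mir29b-2 carry the same 3p arm within different hairpins:
Mir29a (chr6:31062660-31062747, minus strand): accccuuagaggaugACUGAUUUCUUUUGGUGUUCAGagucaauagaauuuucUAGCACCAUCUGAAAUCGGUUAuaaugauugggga
Mir29b-1 (chr6:31063023-31063093, minus strand): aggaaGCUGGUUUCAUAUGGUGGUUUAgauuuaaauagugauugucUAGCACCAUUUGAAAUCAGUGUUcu
Mir29b-2 (chr1:195037040-195037120, plus strand): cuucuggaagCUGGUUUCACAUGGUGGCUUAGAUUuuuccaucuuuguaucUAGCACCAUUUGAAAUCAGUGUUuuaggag
Mir29c (chr1:195037547-195037634, plus strand): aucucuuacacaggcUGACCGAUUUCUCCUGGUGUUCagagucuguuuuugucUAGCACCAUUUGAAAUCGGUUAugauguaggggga

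In global alignments of the hairpins, the most alike pairs were Mir29a with Mir29c, identical at 78.0% of columns, and Mir29b-1 with Mir29b-2 at 73.2%, both across clusters. Cluster mates stood at 60.4% (Mir29a with Mir29b-1) and 63.2% (Mir29b-2 with Mir29c). The other pairs across clusters were the least alike, at 58.8% for Mir29a with Mir29b-2 and 55.9% for Mir29b-1 with Mir29c. The longest stretch shared by the miR-29b hairpins was 25 bases, longer than the 23-base mature 3p arm. It read ucuagcaccauuugaaaucaguguu and so held that arm whole, with a pair of bases before it.

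In both clusters the miR-29b hairpin comes first in the direction of transcription. On mm10 chromosome 6 (minus strand), Mir29b-1 (ENSMUSG00000065604.2) and Mir29a (ENSMUSG00000065610.1) are 275 bases apart. The 5′ end of the Mir29b-1 hairpin overlaps the lincRNA gene Gm27019 (chr6:31063092-31063495, same strand) by 2 bases, and no other annotated gene overlaps Mir29a. On chromosome 1 (plus strand), Mir29b-2 (ENSMUSG00000065412.3) and Mir29c (ENSMUSG00000065548.1) are 426 bases apart. Both lie in an exon of 1 of the 4 annotated transcripts of the non-coding RNA gene A330023F24Rik. They are also on the opposite strand to an exon of 1 of 4 transcripts of Cd46, a complement regulator.

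**Figure D1:**
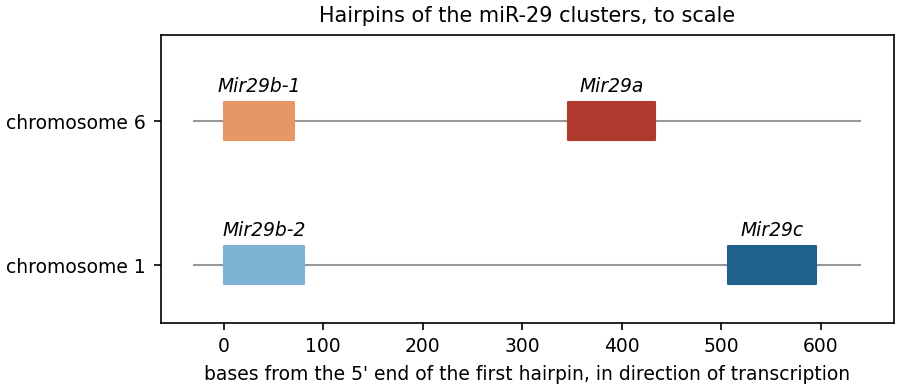
Map of the miR-29 hairpins in each cluster, drawn to scale in the direction of transcription, with the distance in bases from the 5′ end of the first hairpin on the x axis. The hairpins are 275 bases apart on chromosome 6 and 426 bases apart on chromosome 1, and a miR-29b hairpin comes first in both.

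Reads that match several loci were not given to genes in these files, so the length of sequence that is particular to 1 gene matters. The start of each mature arm was searched, on the strand of the gene, in the hairpins of all 2202 counted genes. The start of miR-29a-3p matched Mir29a alone from 10 bases onward. For miR-29c-3p 18 bases were needed, because up to 17 bases also matched both miR-29b genes. The whole 23 bases of miR-29b-3p matched Mir29b-1 and Mir29b-2. Of 1674 distinct mature sequences in RefSeq, 78 (4.66%) matched at least 2 genes over their full length, as miR-29b-3p did. Among the 1546 that matched 1 gene, the median length needed was 10 bases, and 38 (2.46%) needed 18 or more. All 4 of the 5p arms were particular to 1 gene, from 9 bases in Mir29a and Mir29c, 10 in Mir29b-2 and 11 in Mir29b-1. Matches elsewhere in the genome were not analysed here. The files do not separate the arms, so each count below is the sum of every assigned read of a hairpin.

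**Figure D2:**
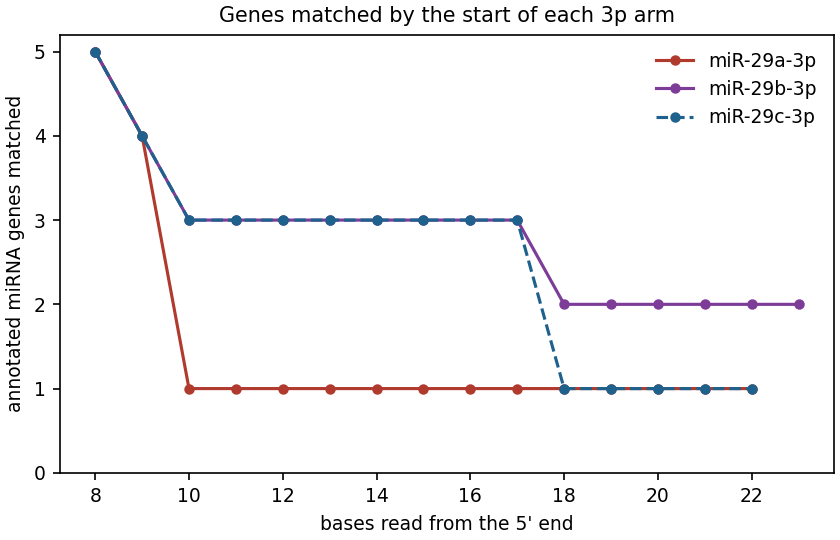
Number of annotated miRNA genes whose hairpin holds the start of each 3p arm (y axis), by the number of bases read from the 5′ end (x axis). The line of miR-29a-3p reaches 1 gene at 10 bases and that of miR-29c-3p at 18 bases, while miR-29b-3p still matches 2 genes at its full 23 bases.

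Each level below is a count per 1000000 (CPM) of the own-strand counts on miRNA genes, of which replicate 1 held 2388379 and replicate 2 held 4447390. Mature arms are of similar length (22 to 25 bases), so counts were not divided by length. In the libraries 3 counts correspond to 1.26 and 0.675 CPM, and neither these floors nor the intervals below hold more than counting error, because without molecular identifiers several reads can stem from 1 molecule. In bulk tissue, fewer cells of a type and less RNA per cell cannot be told apart.

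Mir29a, the member with the most assigned reads, had 15654 counts in replicate 1 and 53137 in replicate 2. These are 6554 and 11948 CPM, or 9251 ± 3814 CPM (mean ± SD, n = 2). It ranked 32nd of 2202 genes in replicate 1 and 21st in replicate 2. By assigned reads Mir29a thus belonged to the abundant miRNA genes of this cortex. Its mean was above that of 93.4% of the 392 genes that had at least 10 counts in each library. Reads that match several genes are left out of these ranks, so genes that share a mature arm may rank too low.

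Mir29c, whose mature form differs from miR-29a-3p by that 1 base, had 1711 and 6361 counts. Its levels were 716 and 1430 CPM (1073 ± 505, SD, n = 2), and ranked 114th and 91st. Mir29a gave 9.15 times the counts of Mir29c in replicate 1 (95% exact interval 8.70 to 9.62) and 8.35 times in replicate 2 (8.14 to 8.57). The order of these genes was the same in both libraries, and their levels did not overlap.

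Mir29b-2 had 189 and 422 counts, or 79.1 and 94.9 CPM (87.0 ± 11.1, SD, n = 2). Mir29b-1 had 173 and 261 counts, or 72.4 and 58.7 CPM (65.6 ± 9.72, SD, n = 2). Mir29b-2 was above Mir29b-1 in both libraries, but within replicate 1 the ratio of their counts was 1.09 with an interval of 0.884 to 1.35, so they were not distinguishable there. In replicate 2 the ratio was 1.62 (1.38 to 1.89). Both miR-29b genes lay below the median gene tested, which had a mean of 121 CPM.

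The miR-29b counts are lower limits on what the loci gave, since reads of the shared mature 3p arm match both genes, and their CPM is uncertain because the totals leave such reads out as well. Reads with several matches numbered 2636677 in replicate 1 and 5818669 in replicate 2, that is 1.10 and 1.31 times the own-strand counts. How many of them came from miR-29b was not tested. None of the 4 genes had a count on the opposite strand in either library.

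**Figure D3:**
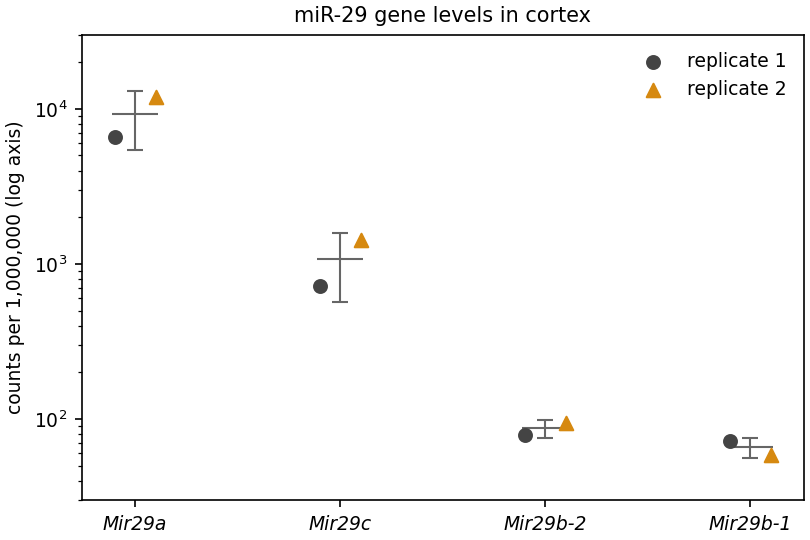
Levels of the miR-29 genes in counts per 1000000 on a log axis, with circles for replicate 1, triangles for replicate 2, and a bar with whiskers for the mean ± SD (n = 2). Mir29a at 6554 and 11948 and Mir29c at 716 and 1430 stand above both miR-29b genes, which lie between 58.7 and 94.9.

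Within the family, most counts were those of Mir29a in both libraries. Its share was 88.306% in replicate 1 (87.8 to 88.8%, a Clopper-Pearson interval, exact, at 95%) and 88.295% in replicate 2 (88.0 to 88.6%). Mir29c held 9.65% (9.22 to 10.1%) and 10.6% (10.3 to 10.8%). The share of Mir29b-1 was 0.976% (0.836 to 1.13%) and then 0.434% (0.383 to 0.489%), and that of Mir29b-2 1.07% (0.920 to 1.23%) and 0.701% (0.636 to 0.771%). The intervals of the libraries overlapped for Mir29a and did not overlap for the other 3 genes.

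By cluster, the chromosome 6 genes held 89.3% of the family's counts in replicate 1 (88.8 to 89.7%) and 88.7% in replicate 2 (88.5 to 89.0%). The chromosome 1 genes held the remaining 10.7% and 11.3%. Within the chromosome 6 cluster there were 90.5 counts of Mir29a for each count of Mir29b-1 in replicate 1 (interval 77.9 to 106) and 204 in replicate 2 (180 to 231). Within the chromosome 1 cluster there were 9.05 counts of Mir29c for each of Mir29b-2 (7.79 to 10.6) and then 15.1 (13.7 to 16.7). Cluster mates therefore had far from equal counts, with the miR-29b gene the lower in each cluster and library. Because reads of miR-29b-3p could not be assigned, these ratios describe assigned reads and not the output of the hairpins.

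Between the libraries the 2 genes with a 3p arm of their own were higher in replicate 2, by similar factors. Mir29a was 1.82-fold higher (95% counting interval 1.79 to 1.86), a log2 ratio of 0.87 with a counting SE of 0.013. Mir29c was 2.00-fold higher (1.89 to 2.11), a log2 ratio of 1.00 with an SE of 0.039. For the miR-29b genes the log2 ratios were −0.30 (SE 0.14) for Mir29b-1 and 0.26 (SE 0.13) for Mir29b-2. Summed over both miR-29b genes the levels were 152 and 154 CPM, a fold of 1.01. Reads of the shared miR-29b-3p arm match both genes and are not in these counts, so this fold describes assigned reads and not miR-29b as a whole.

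Over all 392 genes the libraries were set against each other in a two-sided binomial test, exact and conditional on the total counts, with Benjamini-Hochberg adjustment. Mir29a passed at an adjusted p below 1e-300 and Mir29c at an adjusted p of 3.9e-159 in this exact test. The miR-29b genes did not, at exact adjusted p = 0.060 for Mir29b-1 and 0.064 for Mir29b-2. Of all genes tested, 56.9% passed, 34.2% higher and 22.7% lower in replicate 2, so 2 of 4 members is close to the share of all genes. More than 1.5-fold higher were 17.3% of genes tested, and Mir29a and Mir29c were among them. From the highest ratio downward Mir29a ranked 40th and Mir29c 34th of 392, Mir29b-2 142nd and Mir29b-1 304th, and the median log2 ratio of all genes tested was 0.06.

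Counting error is the sole error in this test. Log2 ratios had an SD of 0.56 over the 242 genes that reached 100 counts in each library. In edgeR's exact test, 0.765% of genes passed (3 of 392) and none of the 4 members did (adjusted p = 1 for each). Its common dispersion (a biological coefficient of variation of 0.311) was estimated from the very pair of libraries compared, so few calls are built into it, and it says nothing of whether a member differs between animals. The unadjusted p in that exact test was 0.18 for Mir29a and 0.13 for Mir29c. The calls of the miR-29b genes depended on the scaling: Mir29b-1 passed the exact binomial test at a log2 ratio of −0.36 with TMM (adjusted p = 0.021), while Mir29b-2 stood at 0.20 (adjusted p = 0.17).

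**Figure D4:**
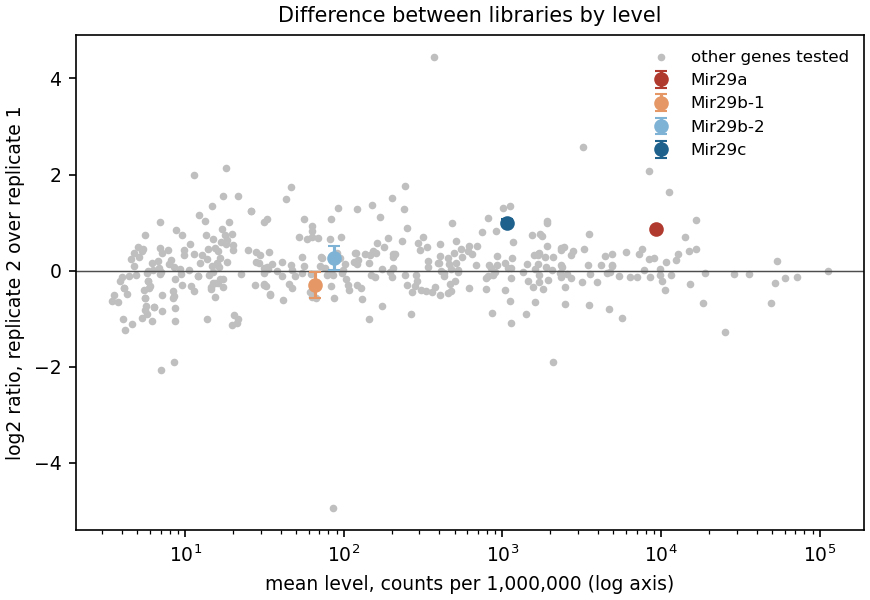
Log2 ratio of replicate 2 over replicate 1 (y axis) against mean level in counts per 1000000 (x axis, log scale) for the 392 genes tested, in grey, and for the miR-29 genes in colour with 95% counting intervals. Mir29a and Mir29c lie at 0.87 and 1.00, while Mir29b-1 and Mir29b-2 lie on either side of 0 at −0.30 and 0.26.

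Ratios between members do not depend on the library totals. All 6 pairs of members were compared between the libraries by Fisher's exact test, two-sided and adjusted over the 6 pairs. The smallest change was that of Mir29a over Mir29c, which are in different clusters: the ratio fell by 0.13 on the log2 scale (SE 0.041, exact adjusted p = 0.0018). The largest change was that of Mir29c over Mir29b-1, also in different clusters, which was 2.46-fold higher in replicate 2 (interval 2.02 to 3.01, exact adjusted p = 9.4e-17).

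Ratios within both clusters changed too. The ratio of Mir29a to Mir29b-1 was 2.25-fold higher in replicate 2 (interval 1.86 to 2.73, exact adjusted p = 7.0e-15), and that of Mir29c to Mir29b-2 was 1.67-fold higher (1.39 to 1.99, exact adjusted p = 1.3e-07). The ratio of Mir29a to Mir29b-2 was 1.52-fold higher (1.28 to 1.81) and that of Mir29b-2 to Mir29b-1 was 1.48-fold higher (1.14 to 1.91). All 6 pairs passed this test, which compares these libraries and covers counting error only. The 6 pairs are built from 4 genes, so they are not independent. Pairs of other genes were not compared, so the share of pairs that would pass among all genes is not known. Of single genes tested, 56.9% passed the exact binomial test. The share of mapped reads with several matches also differed between the libraries, at 48.6% in replicate 1 and 52.8% in replicate 2. Unmapped reads were 31.6% of all reads in replicate 1 and 18.2% in replicate 2. The part of these differences in the miR-29 ratios was not tested.

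**Figure D5:**
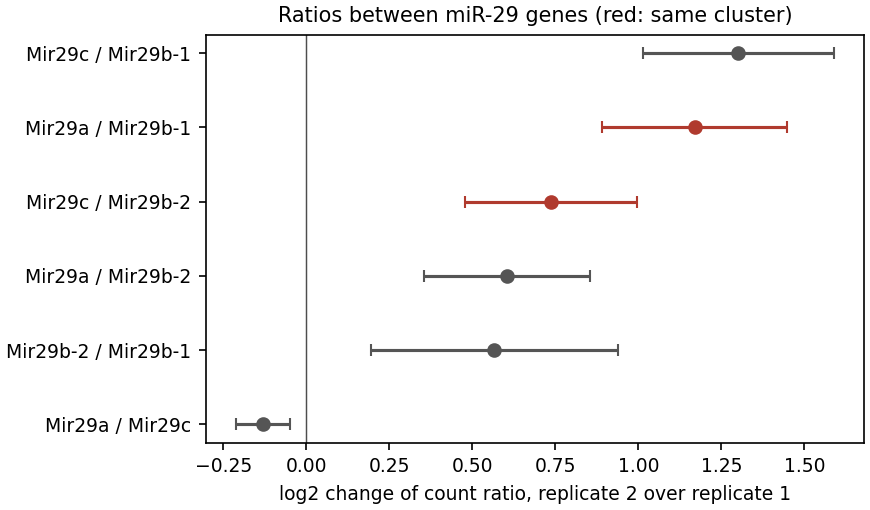
Log2 change between the libraries (x axis, replicate 2 over replicate 1) of the count ratio of each pair of miR-29 genes, with 95% counting intervals and pairs within a cluster in red. The ratio of Mir29a to Mir29c is nearest to 0 at −0.13, and the other 5 lie between 0.57 and 1.30.

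The genes nearest in level to each member were taken by Euclidean distance over log2(CPM + 1) in the 2 libraries. For Mir29a these were Mir149 (distance 0.43), Mir23a (0.45) and Mir328 (0.46), whose log2 ratios of 0.26, 0.45 and 0.23 were all lower than that of Mir29a. For Mir29c they were Mir381 (0.25), Mir15a (0.29) and Mir497 (0.33), with log2 ratios of 1.35, 1.30 and 0.83. A small distance over these 2 libraries requires a similar ratio, so the ratios of the neighbours are part of how they were chosen. Mir29b-2 lay nearest to Mir7-2 (0.10), Mir375 (0.18) and the red-cell miRNA Mir451a (0.24). Mir29b-1 lay nearest to Mir155, an immune-cell miRNA (0.18), Mir429 (0.18) and Mir203 (0.19).

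Other miRNAs known to repress DNA methyltransferase mRNAs went both ways between the libraries. Of the 6 on the list besides the miR-29 genes, 2 were higher in replicate 2, 3 were lower and 1 did not pass the exact binomial test. Of all genes tested, 34.2% were higher and 22.7% lower. The median log2 ratio of the 6 was −0.001. Mir148b was 2.45-fold higher (69.9 and 171 CPM) and Mir148a 2.11-fold higher (36.0 and 76.0 CPM). Mir152, of the same family as these, stood at 44.8 and 48.3 CPM (log2 ratio 0.11, exact adjusted p = 0.65). Mir101b and Mir101a were lower, at log2 ratios of −0.51 and −0.32, as was Mir143 at −0.11. In abundance Mir29a stood above all of them, with Mir143 next at 5449 ± 299 CPM (SD, n = 2).

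Markers of cell types that the tissue holds also differed between the libraries. Of 9 astrocyte-enriched genes outside the family, 6 were higher and 2 lower in replicate 2, beside 34.2% and 22.7% of all genes tested. Their summed level went from 26859 to 35953 CPM, 1.34-fold, with Mir23b at 1.36-fold and Mir27b at 1.42-fold. The lower genes were both miR-26a genes: Mir26a-1 had 396 and 24 assigned counts (log2 ratio −4.94) and Mir26a-2 stood at 74.9 and 50.8 CPM (log2 ratio −0.56). For numbered gene copies in these lists, such as those of miR-26a and miR-24, reads that match several genes are not in the counts. How many such reads came from these miRNAs was not tested, so the ratios describe assigned reads. The endothelial and mural list went from 16755 to 28010 CPM, 1.67-fold, while its median log2 ratio was −0.11: Mir126a was 2.09-fold higher, and the mural genes were lower, Mir143 at a log2 ratio of −0.11 and Mir145a at −0.22.

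In 3 further lists the sum and the median differed in sign. The oligodendrocyte sum was 1.30-fold higher in replicate 2 while the median log2 ratio stood at −0.03, and of its 3 genes Mir219a-2 alone passed the exact binomial test, 1.64-fold higher. For red cells the sum was 1.08-fold higher with a median of −0.08 (log2), and Mir144 alone passed, 2.35-fold higher. The neuron-enriched list, with 4 of 9 tested genes higher and 2 lower, had a median log2 ratio of 0.26 but a summed ratio of 0.854. That sum rested on Mir132, a miRNA induced by neuronal activity, which stood at 60392 and 37793 CPM. Without Mir132 the sum was 1.36-fold higher in replicate 2. Both sums hold assigned reads only, and reads that match several genes are missing from them. The highest Mir124a gene, Mir124a-1, stood at 3.77 and 2.02 CPM, and the highest Mir9 gene, Mir9-3, at 66.2 and 79.1 CPM. In the list of microglia and white blood cells 2 of 5 genes were higher and 1 lower, with a summed ratio of 1.08. Beside the counts of this list and the neuron-enriched list, 34.2% of all genes tested were higher and 22.7% lower. The choroid plexus miRNA Mir204 was 1.42-fold higher. None of the listed genes was at 0 in both libraries, and Mir124a-2 had the fewest assigned reads, at 0 and 1 counts. Because reads that match several genes were left out, so low a count does not show that miR-124 was scarce. The part of these cell types in the miR-29 difference was not tested.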

How the data were processed

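The authors deposited raw read counts per miRNA gene on mm10 with GENCODE M21 annotation, as stated in the readme files. Aligner and counting tool: not given in the sources used here. From the values alone, the 3 count columns were read as both strands, own strand and opposite strand, and own-strand counts were used. Totals and tests left out the 4 entries without a gene; reads in no feature were 7.36% and 6.91% of mapped reads. The reference is that of C57BL/6J, and mismatches of CAST/EiJ reads were not tested.

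With 1 group, edgeR's quasi-likelihood test has no contrast. An exact binomial test, conditional on each gene's total and given the own-strand totals, was run over genes with a minimum of 10 counts in both libraries, with Benjamini-Hochberg adjustment over all of them at 0.05. A chi-square test separated the libraries beyond sampling noise, so they were kept apart. Counting intervals of folds are ± 1.96 SE. Alternatives were TMM and edgeR's exact test with the common dispersion of the pair (edgeR 4.0.16), DESeq2 1.42.0 size factors, other totals, both strands together, count minimums of 1 and 100, and, for pairs, a correction of 0.5. Simulated counts served to test the binomial script. Mature sequences were from RefSeq and hairpins from GENCODE. Members, lists and the naming rule (members, the 3 genes nearest in level to each, listed genes, miRNAs sharing a seed) were chosen with earlier results of these data known. Python 3.11.15, SciPy 1.17.1, Biopython 1.88 and R 4.3.3 were used.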

Additional observations from a re-analysis of the deposited data

How the results depend on the processing

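Against all mapped reads in place of own-strand counts, mean levels were 3852 (Mir29a), 446 (Mir29c), 36.6 (Mir29b-2), 27.8 (Mir29b-1) and 4363 (the family) per 1000000. That scaling also moved the median log2 ratio of the genes tested from 0.06 to −0.06. The log2 ratio of the family sum, 0.87 against own-strand totals, was 0.74 against all mapped reads, 0.81 with TMM, 0.80 with DESeq2 size factors, 0.88 without numbered copies in the total and 0.89 with both strands together. Mir29b-1 passed the threshold at −0.43 against all mapped reads, −0.36 with TMM, −0.37 with DESeq2 size factors and −0.30 at a count minimum of 100, where fewer genes were tested. Mir29b-2 passed at 0.29 with both strands together and at 0.26 with the count minimum of 100, under which all 4 members passed. Under these scalings and with both strands together the members' own counts were unchanged, and only the totals that they were set against differed. The log2 ratio of the totals, replicate 2 over replicate 1, moved by 0.058 with TMM and by −0.025 with both strands together. Why the totals moved was not tested. In edgeR's exact test Mir29a (0.87) and Mir29c (1.00) no longer passed, 0 of the 4 members and 3 of 392 genes did, 2 higher and 1 lower; this test adds the spread between the libraries, estimated from the same pair, to counting error. The log2 ratios of all 4 members and the 6 ratios between members kept their direction under every alternative run. The summed ratio of the neuron-enriched list, 0.854, was 1.36 without Mir132, a setting chosen after seeing the data. No paired analysis was possible because the labels give 1 group. Leaving out a library leaves 1 value per level, which is given in the report. Depth limits the miR-29b genes most, at 173 to 422 counts per library.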
